A study of Homo sapiens
Mus musculus and Homo sapiens and Mus musculus with 7 samples.

Results

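The nucleolar ribosome biogenesis factors are 48 human genes, chosen by symbol in GENCODE 29 from the 58721 human genes in the count files. All 48 symbols were found, and 46 of these genes had enough reads to be tested, among 6244 human genes tested in all. The choice used gene names and no measured value, though it was made with earlier results of these data known. Sorted by role, they were 3 core proteins of box C/D snoRNPs, 4 core proteins of box H/ACA snoRNPs, 5 abundant nucleolar proteins and chaperones, 6 DEAD-box helicases, 16 factors of the small subunit and 14 factors of the large subunit.

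Ribosomes are assembled largely in the nucleolus, where RNA polymerase I makes a long precursor that is cut, modified and folded into the rRNAs of both subunits. Box C/D snoRNPs carry guide RNAs for 2′-O-methylation and box H/ACA snoRNPs carry guide RNAs for pseudouridylation of that precursor. Helicases and assembly factors bind the early particles, and many of them leave before the subunits reach the cytoplasm. These genes are highly expressed in growing cells, and HEK293 is a fast-dividing human embryonic kidney line.

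The study tagged RPL22, a protein of the large ribosomal subunit, so that ribosomes and the mRNAs on them could be pulled down from one cell line in a mixture. HEK293 cells expressed RPL22-HA and mouse NIH3T3 fibroblasts expressed RPL22-V5, and the lines were grown in co-culture. The 7 libraries were 1 of the unselected RNA of the mixed cells (the input), 1 of HEK293 alone, 1 of NIH3T3 alone, 2 HA IPs (target HEK293) and 2 V5 IPs (target NIH3T3) from co-culture lysates. The labels do not say whether the lines grown alone carried a tag. They give the first HA and first V5 IP the same lysate number, and the second HA and second V5 IP other numbers, without saying how the lysates relate. The spread between the IPs of a pair may therefore be technical, and p-values measure only that spread.

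The input had 280163 human counts and HEK293 had 826673. The first and second HA IP had 729698 and 1213213, and the V5 IPs had 128915 and 81798. Human genes took 26.9% of all counts in the input, 82.1% and 77.6% in the HA pair, and 6.25% and 4.48% in the V5 pair. All levels below are counts per 1000000 human counts (CPM). A single count was worth 3.57 CPM in the input, and 7.76 and 12.2 CPM in the V5 IPs, so low levels there rest on few reads. Mitochondrially encoded genes held 5.58% of human counts in the input and 8.35% in HEK293, 0.354% and 0.466% in the HA pair, and 2.28% and 3.54% in the V5 pair. The NIH3T3 library held 511 counts on human genes, and 0 fell on any of the 48 factors, which allows a share of up to 1.5e-04% of that library's counts (3 counts).

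The factors differed widely in base composition, and the differences described further on were ordered by it. For that reason 60 coding bases are shown from 4 GC-poor and 2 GC-rich factors, with G and C in capitals. Each stretch is the in-frame window whose GC content is nearest to that of the whole coding sequence, read 5′ to 3′ from the principal transcript in GENCODE 29 (hg38). The whole coding sequence is 41.8% GC in DDX18, 44.7% in DDX21, 39.6% in NOP58 and 42.0% in NPM1, against 56.9% in NHP2 and 61.0% in IMP4.
DDX18: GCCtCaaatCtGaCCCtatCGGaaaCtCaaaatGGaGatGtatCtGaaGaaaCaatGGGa
DDX21: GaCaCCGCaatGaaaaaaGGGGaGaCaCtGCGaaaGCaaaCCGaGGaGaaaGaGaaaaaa
NOP58: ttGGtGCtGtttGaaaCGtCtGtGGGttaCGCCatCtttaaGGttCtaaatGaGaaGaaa
NPM1: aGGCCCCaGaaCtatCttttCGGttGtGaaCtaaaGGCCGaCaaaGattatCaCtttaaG
NHP2: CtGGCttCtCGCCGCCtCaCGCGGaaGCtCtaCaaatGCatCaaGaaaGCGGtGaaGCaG
IMP4: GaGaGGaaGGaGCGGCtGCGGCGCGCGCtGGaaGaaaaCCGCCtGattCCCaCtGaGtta

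Several of these genes also carry snoRNA genes inside their introns, so that the host of a snoRNP protein can be the source of a guide RNA. On the same strand, 6 of the 48 held at least 1 annotated snoRNA gene: NOP56, NOP58, DKC1, NCL, WDR43 and GNL3. Among 5845 protein-coding genes tested, 2.29% did. One example of each class is shown. SNORD11 lies within NOP58 at chr2:202293051-202293134 (plus strand, hg38), with box C (TGATGA) and box D (CTGA) in capitals. SNORA36A lies within DKC1 at chrX:154768528-154768659 (plus strand), with its ACA box in capitals.
SNORD11: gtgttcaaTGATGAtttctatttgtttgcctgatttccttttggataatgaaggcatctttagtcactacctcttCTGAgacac
SNORA36A: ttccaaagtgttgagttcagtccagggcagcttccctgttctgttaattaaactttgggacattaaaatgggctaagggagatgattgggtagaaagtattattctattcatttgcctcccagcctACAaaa
Searched on the strand of each snoRNA gene, TGATGA in the first 20 bases together with CTGA in the last 20 was found in 67.3% of 278 SNORD genes and in 0 of 147 SNORA genes. ACA in the last 6 bases was found in 90.5% of SNORA and 4.68% of SNORD genes. A match describes the letters only. No single snoRNA gene inside these hosts held more than 6 counts in any library.

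Together the 48 factors took 0.684% of the human counts of the input (exact Clopper-Pearson 95% interval 0.653 to 0.715%) and 1.30% in HEK293 (1.28 to 1.33%). Their share was 1.27% and 0.937% in the first and second HA IP, and 1.5% and 1.33% in the V5 IPs. The input was the lowest of the 6 libraries, and the HA and V5 IPs did not overlap. The mean was 1.10 ± 0.234% (SD, n = 2) in the HA IPs and 1.42 ± 0.121% (SD, n = 2) in the V5 IPs, with p = 0.33 by a two-sided exact permutation test. No smaller p is possible with 2 libraries against 2. These intervals cover counting error only, since reads copied by PCR are not independent molecules.

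**Figure D1:**
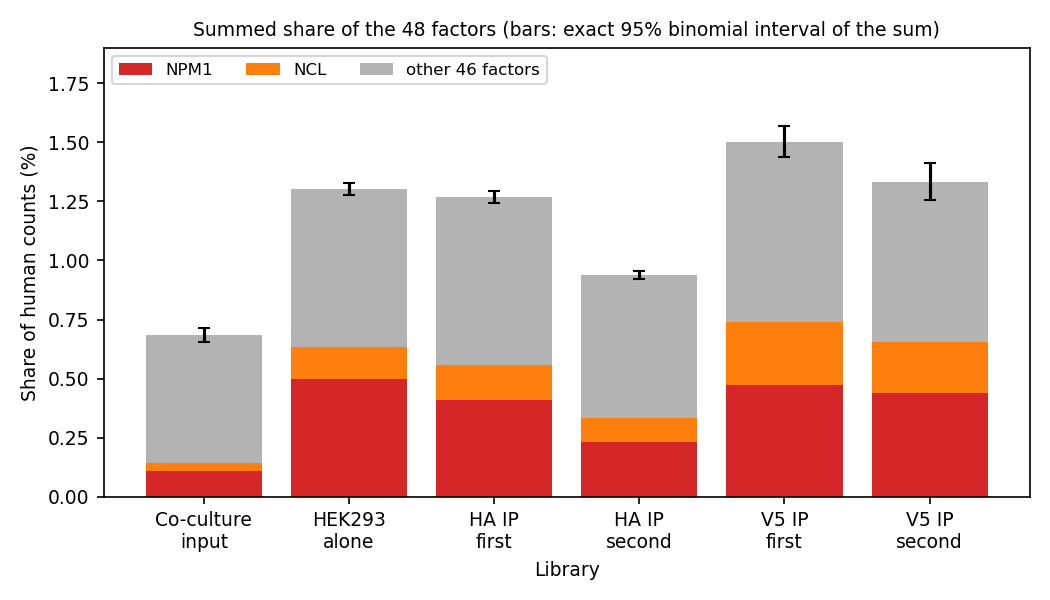
Share of human counts (y axis, percent) taken by the 48 factors in each of the 6 libraries with human RNA (x axis), split into NPM1, NCL and the other genes; black bars are exact 95% binomial intervals of the sum. The input reaches 0.684%, against 0.937% to 1.5% in the other libraries, and most of the gap lies in the NPM1 and NCL segments.

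NPM1 and NCL, the most abundant of these mRNAs, set much of that sum. NPM1 (nucleophosmin, a histone and ribosome chaperone; chr5:171387116-171411137) was 1092 CPM in the input and 5002 in HEK293, with 4085 and 2338 in the HA pair and 4740 and 4389 in the V5 pair. NCL (nucleolin, which binds the rRNA precursor; chr2:231453531-231483641) was 336 CPM in the input and 1334 in HEK293, with 1481 and 996 in the HA pair and 2645 and 2164 in the V5 pair. For both genes the input lay below every other library. NPM1 made up 15.98% of the factors' counts in the input and 24.9% to 38.4% elsewhere. Without NPM1 and NCL the factors took 0.541% of human counts in the input and 0.669% in HEK293, 0.712% and 0.604% in the HA pair, and 0.763% and 0.676% in the V5 pair. The HEK293 level over the input level was 1.91-fold with both genes and 1.24-fold without them.

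The first comparison asks which human mRNAs were more or less abundant on HA-tagged ribosomes than in the total RNA of the mixed culture. DDX18 and DDX21, both DEAD-box RNA helicases of the nucleolus, were higher in the HA IPs, and no factor was lower. That is 2 of 46 called by edgeR's quasi-likelihood test (p-values adjusted by Benjamini-Hochberg over all 6244 genes), of which 0.192% rose, 0.432% fell and 0.625% were called in either direction. Among the other 44 factors, 10 had an unadjusted p under 0.05 (edgeR). Counts at this unadjusted threshold, here and below, have no share of all genes beside them and are not read as a result. Both calls ended without the first HA IP (adjusted p = 0.098 for DDX18 and 0.158 for DDX21, edgeR), and that of DDX18 also without the second (0.0826). With total counts as library size 5 factors were called, with no filter 1, and fitted on only the groups compared 4. Counts called under such alternatives, here and below, have no share of all genes beside them and are not read as a result about the factors.

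DDX18 (chr2:117814650-117832379) was 10.7 CPM in the input, from 3 counts, and 221 CPM in HEK293. It was 218 and 184 CPM in the HA IPs, and 481 and 306 CPM in the V5 IPs. The input was far below the other libraries, which were all at 184 CPM or more. The fitted log2 difference of HA from input was 4.01 (SE 1.03, adjusted p = 0.0211, edgeR). Because the input value rests on 3 counts, the ratio of pooled CPM was 18.4 with an exact 95% interval of 6.24 to 89.4. Such exact intervals of a ratio, here and below, pool both IPs and cover counting error only, not the spread between IPs.

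DDX21 (chr10:68956128-68985073), which acts in transcription and processing of rRNA, was 28.6 CPM in the input and 455 CPM in HEK293. It was 373 and 229 CPM in the HA IPs, and 496 and 477 CPM in the V5 IPs. Again the input stood alone at the low end. The fitted log2 difference of HA from input was 3.17 (SE 0.84, adjusted p = 0.0328, edgeR). The other helicases were not called. DDX10 had 2 counts in the input, with a pooled ratio of 4.90 (exact interval 1.31 to 41.3), and was 68.5 and 14.8 CPM in the HA IPs. Its fitted log2 difference was 2.20 (SE 1.47), and that of DDX27 was 1.38 (SE 0.96). DDX47 had no count in any of the 7 libraries, and 36.5% of its exonic bases are shared with another gene.

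Of the box C/D proteins, NOP58 differed from its partners. NOP58, a core protein of all box C/D snoRNPs (chr2:202265716-202303666), was 7.14 CPM in the input, from 2 counts, and 254 in HEK293, with 163 and 87.4 in the HA pair and 334 and 257 in the V5 pair. The input was again lowest. The HA-to-input ratio was 16.2 with an exact interval of 4.44 to 135, and the fitted log2 difference of 3.86 (SE 1.14) was not called (adjusted p = 0.0926, edgeR). FBL, the methyltransferase of the same particle, was 361 CPM in the input and 300 in HEK293, with 319 and 202 in the HA pair and 357 and 575 in the V5 pair, with a log2 difference of -0.68 (SE 0.63) from input in the HA IPs. NOP56, another core protein, was 136 CPM in the input and 122 in HEK293, with 85.0 and 23.1 in the HA pair and 62.1 and 134 in the V5 pair. Its log2 difference of HA from input was -1.62 (SE 0.85, adjusted p = 0.582, edgeR). Thus the 3 listed proteins of this particle had fitted differences of both signs, and none was called.

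The box H/ACA proteins lay closer together. NHP2, a core protein of the particle, was 814 CPM in the input and 455 in HEK293, with 640 and 1034 in the HA pair and 403 and 538 in the V5 pair. NOP10, the smallest of the proteins, was 332 CPM in the input and 328 in HEK293, with 325 and 334 in the HA pair and 264 and 293 in the V5 pair. The HA IPs overlapped the input for both genes. DKC1 (dyskerin, the pseudouridine synthase) was 99.9 CPM in the input and 256 in HEK293, with 215 and 139 in the HA pair and 310 and 330 in the V5 pair. GAR1, which binds dyskerin, was 71.4 CPM in the input and 82.3 in HEK293, with 82.2 and 68.4 in the HA pair and 31.0 and 97.8 in the V5 pair. None of the 4 was called against input, and the lowest adjusted p was 0.887 (edgeR). Exons of another gene cover 27.4% of the exonic bases of NHP2, and counting used no strand. Reads there cannot be placed with certainty, so its level may be too high or too low.

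NCL and NPM1 had fitted log2 differences of 1.67 (SE 0.58, adjusted p = 0.215, edgeR) and 1.33 (SE 0.52, adjusted p = 0.338) in HA against input, and neither was called. Per kilobase of all annotated exons of a gene, the length given in the count files, NPM1 was the most abundant factor, at a mean of 942 CPM per kb over the 6 libraries. On that scale NOP10 was at 564, NHP2 at 429, NPM3 at 355 and NCL at 215 CPM per kb. The order depends on the length used: per kilobase of a single reference transcript NPM1 was at 2052 CPM, NHP2 at 748, NOP10 at 564, NPM3 at 376 and NCL at 370.02. NPM3, a relative of NPM1, was 328 CPM in the input and 179 in HEK293, with 328 and 441 in the HA pair and 334 and 367 in the V5 pair, so only HEK293 stood apart, at the low end.

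Among the subunit factors none was called in HA against input. For the small subunit, 12 of 16 fitted differences were above 0 (median log2 1.18), and for the large subunit 7 of 13 (median 0.50). Over all genes tested 61.4% were above 0 (median 0.38). UTP18, a protein of the early small-subunit particle, had 0 counts in the input and was 48.4 CPM in HEK293, with 101 and 39.6 in the HA pair and 101 and 61.1 in the V5 pair. With 3 counts in place of the 0 it was at least 5.86-fold higher in the pooled HA IPs, but not in the second IP alone. The fitted difference was not called (adjusted p = 0.161, edgeR). UTP3, UTP4 and UTP15 also had 0 counts in the input, with lower bounds of 2.02-fold, 2.64-fold and 1.25-fold in the pooled HA IPs, which do not hold for each IP alone. The small-subunit median uses the fitted log2 differences of these genes and UTP18 (5.92 to 8.18), not their bounds. GNL3 (nucleostemin, a GTPase of large-subunit assembly) was 57.1 CPM in the input and 359 in HEK293, with 373 and 200.3 in the HA pair and 202 and 208 in the V5 pair, again with the input alone at the low end.

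Other subunit factors ran the other way. IMP4, which joins the precursor to the U3 snoRNA, was 660 CPM in the input and 264 in HEK293, with 343 and 453 in the HA pair and 326 and 342 in the V5 pair. NOP16 was 368 CPM in the input and 150 in HEK293, with 292 and 317 in the HA pair and 217 and 355 in the V5 pair. PES1, a scaffold of the large subunit, was 282 CPM in the input and 186 in HEK293, with 193 and 125 in the HA pair and 248 and 208 in the V5 pair. For these 3 genes the input was the highest of the 6 libraries. MRTO4 was 225 CPM in the input and 194 in HEK293, with 93.2 and 167 in the HA pair, and 147 in both V5 IPs. The fitted log2 differences of HA from input were -0.88 (SE 0.60) for IMP4, -1.04 (SE 0.69) for PES1 and -0.90 (SE 0.73) for MRTO4, and none was called.

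IMP3, the partner of IMP4, varied more between IPs of a pair than between groups. It was 482 CPM in the input and 283 in HEK293, with 422 and 75.8 in the HA pair and 403 and 24.5 in the V5 pair. Both second IPs were thus the low libraries. Exons of another gene cover 59.3% of its exonic bases, more than for any other of the 48. For NOP2 the share was 54.4%, and its counts were too low to test.

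**Figure D2:**
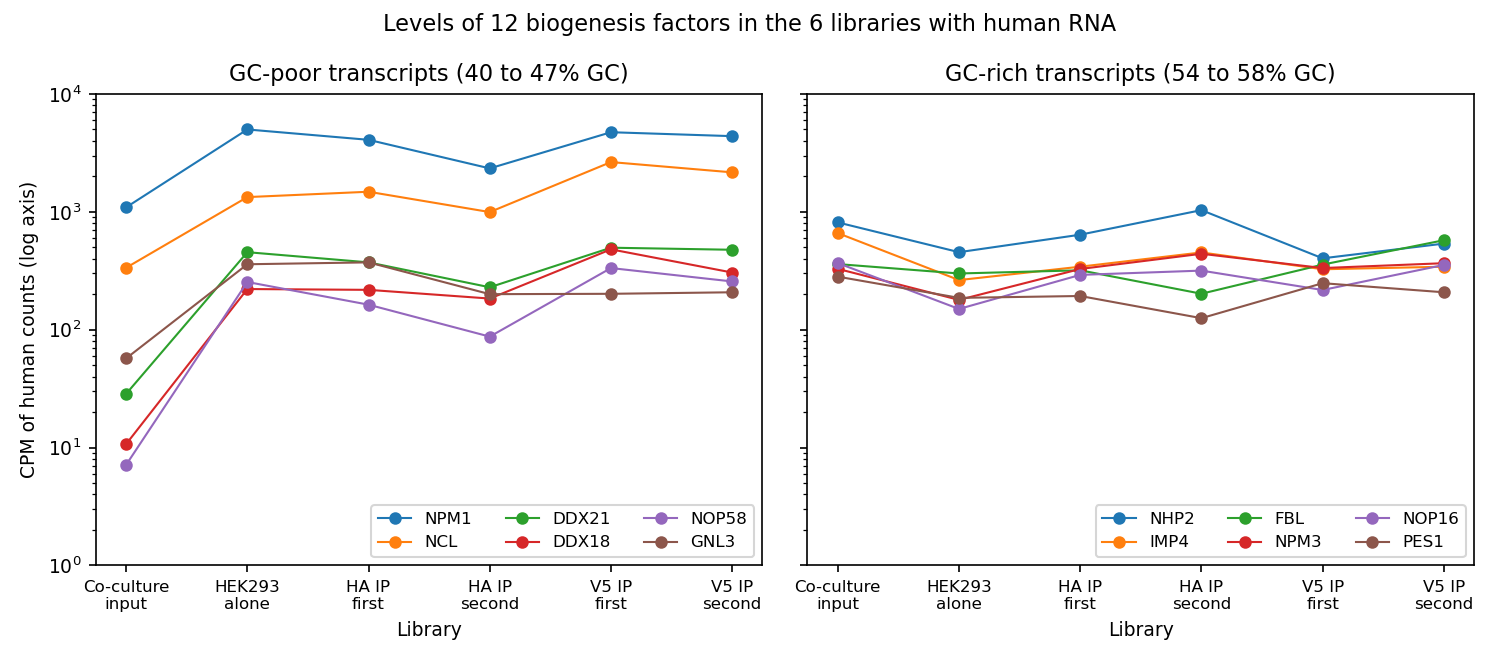
CPM of human counts on a log axis (y) for 12 factors in the 6 libraries with human RNA (x); each point is 1 library and lines join the values of a gene. In the left panel (GC-poor transcripts) the input is lowest for every gene, for example 10.7 CPM against 184 to 481 for DDX18, while in the right panel (GC-rich transcripts) the input is at or near the top for IMP4 (660 CPM) and NOP16 (368 CPM).

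Over all 46 tested factors, 30 fitted differences of HA from input were above 0 and 16 below, beside 61.4% above 0 over all genes. The median log2 difference was 0.63, against 0.38 over all genes tested. With factors at 0 counts in the input set to their lower bound the median was 0.58. On CPM, both HA IPs lay above the input for 26 factors and below it for 12, and over all genes 52.1% lay above and 25.8% below. By role, the median was 2.20 for the helicases, 1.33 for the abundant proteins, -0.10 for box H/ACA and -0.68 for box C/D.

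The V5 IPs target NIH3T3, so the human RNA in them came along with an IP aimed at the other species. Against the input, 4 of 46 factors were called higher in the V5 IPs and 0 lower, beside 0.256% of all genes called higher, 0.496% lower and 0.753% in either direction. They were DDX18 (log2 difference 4.63, SE 1.04, adjusted p = 0.00765), NOP58 (4.78, SE 1.16, adjusted p = 0.0172), DDX21 (3.52, SE 0.86, adjusted p = 0.0172) and NCL (2.28, SE 0.60, adjusted p = 0.0274), all by edgeR. On CPM the V5-to-input ratio was 38.6 (exact interval 12.8 to 191) for DDX18 and 42.5 (11.3 to 359) for NOP58. The median over the 46 was 0.18 against 0.00 over all genes, and both V5 IPs lay above the input for 22 factors and below it for 13, beside 30.3% and 27.3% of all genes. That median rests on single libraries: leaving out the first V5 IP gave -0.15 and leaving out the second gave 0.59, and it was 0.74 with total counts as library size. With IP order as a replicate block IMP3 was also called, as lower (log2 difference -2.40, adjusted p = 0.0252, edgeR), as it was without the first V5 IP (adjusted p = 0.011). With either V5 IP left out NCL was no longer called (adjusted p = 0.204 without the first and 0.122 without the second, edgeR). This comparison and that of HA with input share the same single input library.

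The HA and V5 IPs were next set against each other, which leaves the input out of the contrast. None of the 46 factors was called by edgeR, beside 0.368% of all genes (0.048% higher and 0.32% lower), 4 had an unadjusted p under 0.05, and DESeq2 called 0 as well. The lowest adjusted p was 0.288, for NHP2, with a log2 difference of 1.27 (SE 0.49) towards the HA IPs. DDX18 differed by -0.62 (SE 0.58), DDX21 by -0.36 (SE 0.54), NOP58 by -0.92 (SE 0.63) and NCL by -0.61 (SE 0.43), and all 4 were lower in both HA IPs than in both V5 IPs. On CPM the HA IPs lay above the V5 IPs for 8 factors and below for 14, beside 25.7% and 15% of all genes. The median was 0.17, against 0.37 over all genes, and its sign changed with the scaling.

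The comparison of the HA IPs with HEK293 alone sets ribosome-bound against total RNA of the same human line, in co-culture and alone. No factor was called by edgeR, beside 0.368% of all genes (0.048% higher and 0.32% lower), none had an unadjusted p under 0.05, and DESeq2 called 0. The 2 helicases higher than input were close to HEK293, with log2 differences of -0.15 (SE 0.68) for DDX18 and -0.63 (SE 0.62) for DDX21. Among factors with a mean of at least 50 CPM, the highest were NPM3 at 1.14 (SE 0.67), NOP16 at 1.04 (SE 0.68), NHP2 at 0.93 (SE 0.59) and IMP4 at 0.63 (SE 0.63). The lowest at that level were NOP56 at -1.29 (SE 0.83), NOP58 at -1.07 (SE 0.71), BRIX1 at -0.83 (SE 0.83) and RRS1 at -0.79 (SE 1.08). BRIX1 and RRS1 are early large-subunit factors. Every adjusted p was 1.00 (edgeR). The median was -0.25 against 0.01 over all genes, and both HA IPs lay above HEK293 for 11 factors and below it for 20, beside 34.1% and 33.6% of all genes.

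**Figure D3:**
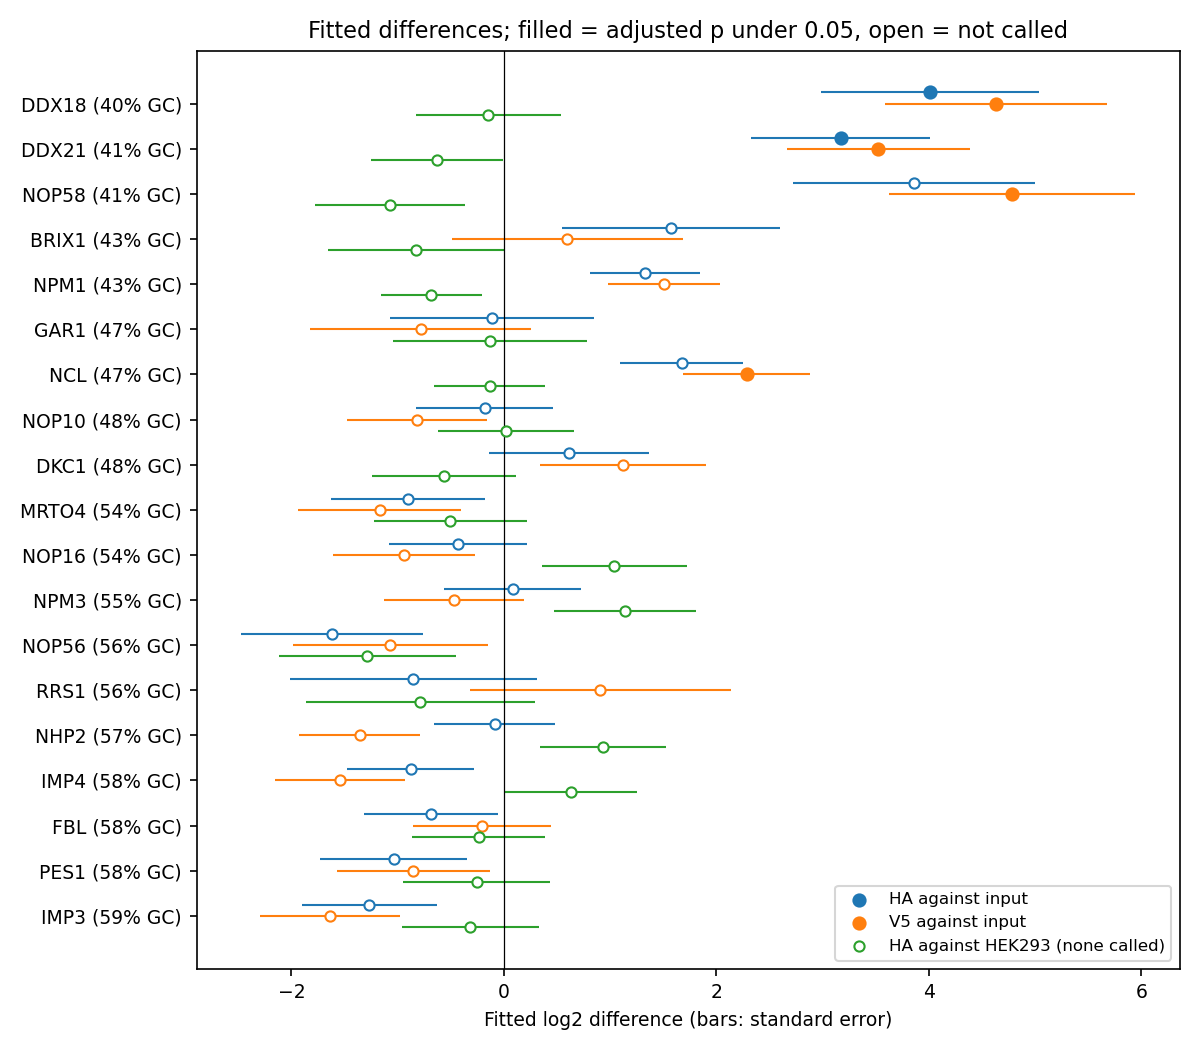
Fitted log2 differences (x axis) with standard errors for the named factors (y axis, ordered by transcript GC content), for HA against input, V5 against input and HA against HEK293; filled points have an adjusted p under 0.05. DDX18 and DDX21 are filled for both IPs against input (4.01 and 4.63, 3.17 and 3.52), while no factor is filled for HA against HEK293.

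The input and HEK293 were single libraries of total RNA and were set side by side without a test. Among 34 factors with a mean of at least 50 CPM, 16 were at least 2-fold lower in the input than in HEK293 and 2 at least 2-fold higher (30.1% and 17.1% of 2255 human genes at that level). These counts come from log2 ratios with a prior count of 2 in every library. With the prior scaled to library size, a setting added after the values had been seen, 17 were lower and 2 higher. As plain ratios of CPM, with no prior count, DDX21 was 15.9-fold higher in HEK293 than in the input, GNL3 6.29-fold, BRIX1 6.02-fold, NPM1 4.58-fold, WDR43 4.54-fold and NCL 3.98-fold. Factors with 3 counts or fewer in the input were left out of these ratios. Among them were NOP58 (7.14 CPM in the input and 254 in HEK293) and DDX18 (10.7 and 221 CPM). IMP4 and NOP16 were 2.5-fold and 2.45-fold higher in the input. Over the 6 libraries the input was the lowest for 19 of the 46 tested factors and the highest for 8, beside 21.3% and 13.1% of all genes.

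This difference was ordered by GC content. Transcript GC was 38.7% to 65.2% over the 48 factors, with a median of 47.9%, against 47.7% over all tested genes. Across the 34 factors, the log2 ratio of input to HEK293 had a Spearman correlation of 0.86 with GC content, and across 2255 genes 0.76. The points are genes of the same 2 libraries and are not independent replicates. In the GC-poorest 16 factors, 11 of the 12 with at least 50 CPM were at least 2-fold lower in the input, with a median log2 ratio of -2.09. In the GC-richest 16, 0 of 10 were lower and the median was 0.45. Summed over the GC-poorest 16, the level was 1510 CPM in the input and 7390 in HEK293, with 6282 and 3859 in the HA pair and 7726 and 6430 in the V5 pair. NPM1 alone made up most of this sum, with 1092 CPM in the input and 5002 in HEK293. Summed over the GC-richest 16, it was 3469 CPM in the input and 2179 in HEK293, with 2772 and 2680 in the HA pair and 2793 and 2506 in the V5 pair.

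The log2 ratio of HA IP to HEK293 had a weaker relation with GC content, with Spearman correlations of 0.25 and 0.14 across the 34 factors for the first and second IP. Across 2255 genes they were 0.23 and 0.34. With a per-library GC trend removed, no factor was called in HA against input: DDX18 had a log2 difference of 2.76 (adjusted p = 0.326) and DDX21 of 2.04 (adjusted p = 0.425, edgeR). In V5 against input DDX18, DDX21, NOP58 and NCL were still called with the trend removed. Only 1 input library was made, so its GC pattern and the co-culture itself cannot be told apart.

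**Figure D4:**
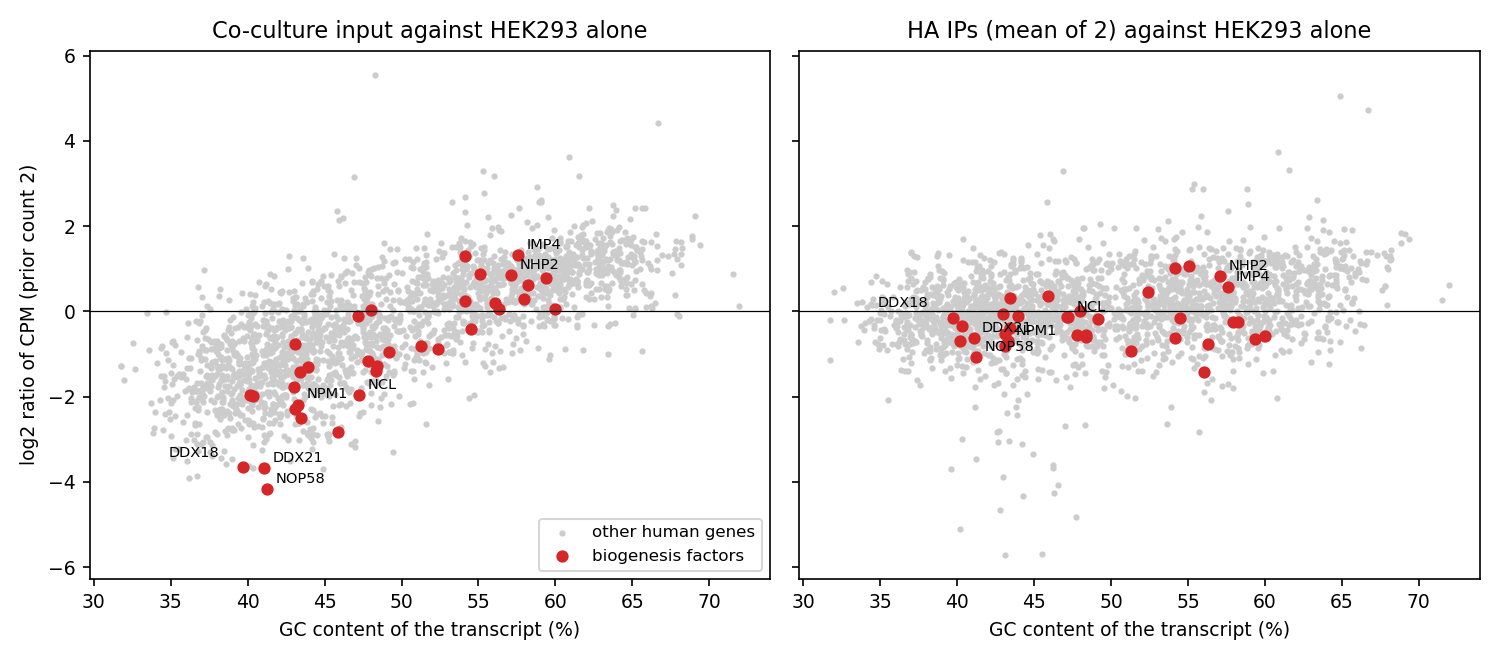
Log2 ratio of CPM (y axis, prior count of 2) against transcript GC content (x axis, percent) for the 34 factors (red) and other human genes (grey), for input against HEK293 (left) and the mean of the HA IPs against HEK293 (right). On the left the factors climb from the GC-poor DDX18, DDX21 and NOP58 to the GC-rich IMP4 and NHP2 (Spearman 0.86). On the right they climb less (0.25 and 0.14 for the first and second HA IP, against 0.23 and 0.34 over all genes).

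The paired IPs also differed from each other. Between the second and first HA IP the 34 factors had a median log2 ratio of -0.63, against -0.14 over all genes at that level, and 8 were at least 2-fold lower and 0 higher (13.4% and 1.29% of all genes). The ratio was lower for longer transcripts, with a Spearman correlation of -0.49 with transcript length across the factors and -0.35 across all genes. Between the V5 IPs 6 factors were at least 2-fold lower and 3 higher in the second (15.6% and 16.2% of all genes), and 9 were lower with the scaled prior. Levels of the 34 factors had a Spearman correlation of 0.86 between the HA IPs, 0.68 between the V5 IPs, 0.89 and 0.82 between each HA IP and HEK293, and 0.57 between input and HEK293.

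The other genes of the pathway were read from a list of 109 symbols for RNA polymerase I and its factors, further factors of both subunits and the RNA exosome. Of these, 108 were matched and 98 tested. In HA against input 0 rose and 1 fell, beside 0.192% and 0.432% of all genes, and 16 had an unadjusted p under 0.05. Their median log2 difference was 0.60, against 0.38 over all genes. The gene that fell was TBL3, a small-subunit factor of the UTP-B complex, with a GC content of 63.8%. It was 232 CPM in the input and 48.4 in HEK293, with 46.6 and 19.8 in the HA pair and 109 and 110 in the V5 pair, with a log2 difference of -3.06 (SE 0.85, adjusted p = 0.0488, edgeR). It kept its sign in 11 alternatives and was past the threshold in 5 of them, and not with either HA IP left out, with a replicate block (adjusted p = 0.0552), with total counts (0.0585), with no filter (0.176) or with the GC trend removed (0.266). In V5 against input 1 of the 98 rose, beside 0.256% of all genes. It was TWISTNB, a subunit of RNA polymerase I with a GC content of 37.3%. It was 14.3 CPM in the input and 163 in HEK293, with 214 and 187 in the HA pair and 295 and 281 in the V5 pair, with a log2 difference of 3.76 (SE 1.03, adjusted p = 0.0388, edgeR). It was past the threshold in 7 of 12 alternatives, and not with either HA IP left out (adjusted p = 0.0855 and 0.0932), with no filter (0.107), with the filter of 50 counts (0.0653) or with the GC trend removed (0.192). In HA against V5 and HA against HEK293 0 of the 98 were called by edgeR, and 12 and 3 had an unadjusted p under 0.05.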

How the data were processed

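RNA of 7 libraries was measured by SMART-seq cDNA and Nextera DNA Flex sequencing, per the labels' protocols. The authors deposited raw gene counts, made with featureCounts 1.5.2 over exons in paired mode and without strand, per the file headers. STAR 2.5.2, Trim Galore, bcl2fastq, SAMtools and hg38 are named in the submitters' processing notes. All 58721 human identifiers matched GENCODE 29 in start and end.

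Only human genes were fitted, in the 6 libraries with human RNA, with edgeR 4.0.16 (quasi-likelihood) in R 4.3.3. Library sizes were human counts with TMM factors. Genes were kept by filterByExpr (minimum count 10, minimum total 15), which kept 6244, and p-values were adjusted by Benjamini-Hochberg over them with a threshold of 0.05. The fit had 2 residual degrees of freedom, from the pairs of IPs, and assumes the same spread for single libraries. Its biological coefficient of variation was 51.2%. CPM are plain shares of human counts. Log2 ratios of single libraries used a prior count of 2 and genes with a mean of at least 50 CPM. A prior scaled to library size was added as an alternative after the data had been seen, and its values are given beside the others.

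The members, lists and tests were chosen with earlier results of these data known. Named were factors called in any comparison, all snoRNP proteins, NCL and NPM1, the 5 highest in CPM per kb, and, among factors with a mean of at least 50 CPM over the 6 libraries, the 4 with the largest and the 4 with the lowest fitted difference in HA against input and in HA against HEK293. GNL3, WDR43, DDX10, DDX27, DDX47, NOP2, UTP3, UTP4 and UTP15 were named after their values were seen. Alternatives were other scalings (total counts, DESeq2 size factors), DESeq2 1.42.0 as the test, a filter of at least 50 counts in 2 libraries or none, IP order as a block, removal of a GC trend, fewer samples and leaving out each IP. The scripts were tested on simulated data. Python 3.11.15, pandas 2.3.3, numpy 2.4.6, scipy 1.17.1 and matplotlib 3.10.9 did the rest.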

Additional observations from a re-analysis of the deposited data

How the results depend on the processing

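Of 26 single-gene results followed through the alternatives, those of TBL3 and TWISTNB among them, none changed the sign of its fitted difference. They come from HA against input, HA against HEK293 and V5 against input. Most were followed because they were called or had extreme fitted differences in these same libraries, so a kept sign was likely beforehand. Single genes in HA against V5, and some in HA against input such as FBL and IMP4, were not followed. The 2 factors called in HA against input became 5 with total counts as library size, 1 with no filter, 4 when fitted on only the groups compared and 0 with the GC trend removed, and 0 to 4 when each IP was left out. Without the first HA IP 0 were called, and with either V5 IP left out 4. Over 12 alternatives the adjusted p of DDX18 was 0.000938 to 0.326 and that of DDX21 0.000584 to 0.425 (edgeR, DESeq2). In V5 against input 3 to 5 factors were called, and DDX18 and DDX21 in all 12 alternatives. NCL lost its call with either V5 IP left out (highest adjusted p = 0.204). In HA against V5 and HA against HEK293 0 were called in 13 alternatives each. The share of all genes called in each alternative is not given, so these counts are not read as a result about the factors. With IP order as a replicate block, 2 were called in HA against input and 5 in V5 against input, where IMP3 was added as lower. The labels tie only the first HA and first V5 IP to the same lysate number, and deviations of same-order IPs correlated at 0.20 over 2237 genes.

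The median difference of HA from V5 (0.17) was -0.20 with total counts, -0.34 with the filter of 50 counts and -0.28 with the GC trend removed, and -0.25 to 0.42 when each IP was left out. That of V5 from input (0.18) was 0.74, 0.55 and 0.71 in the same settings, 0.64 when fitted on only the groups compared, and -0.15 to 0.59 when each IP was left out. Scaling moved all genes too: with TMM, DESeq2 size factors and total counts, the median of all genes was 0.38, 0.17 and 0.57 in HA against input, 0.37, 0.03 and 0.00 in HA against V5, and 0.00, 0.09 and 0.53 in V5 against input. The shares without NPM1 and NCL stand in the report (0.541, 0.669, 0.712, 0.604, 0.763 and 0.676%), and without mitochondrially encoded genes the share was 0.724% in the input and 1.42% in HEK293. Apart from the GC setting and the settings with fewer genes or samples, the cause of these changes was not tested.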
